A study of Mus musculus with 19 samples.

Results

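The 9 genes described here (Mrc1, Cd163, Lyve1, Folr2, Timd4, Retnla, Clec10a, Mgl2 and F13a1) are markers of tissue-resident macrophages, and are called the resident markers below. They were taken by symbol from the 24237 genes with numeric values in the expression table of epididymal white adipose tissue (eWAT), and each symbol matched 1 gene. RNA had been sequenced from male C57Bl6/J mice, adult and 17 weeks on their diets, with 1 library per mouse. Control mice ate a normal magnesium, low-fat diet (NormMg-LFD, n = 4, replicates 2 to 5). The others ate a low magnesium, low-fat diet (LowMg-LFD, n = 5), a normal magnesium, high-fat diet (NormMg-HFD, n = 5) or a low magnesium, high-fat diet (LowMg-HFD, n = 5). Fat in these diets was palm oil and magnesium was given as the oxide. The mice sequenced were a random draw from larger diet groups. The comparisons ask how dietary fat and dietary Mg2+ moved the resident markers, and how that compares with the rise of macrophage RNA on the HFD.

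Adipose tissue holds macrophages that live there in lean animals, many of them along vessels, and that clear debris, take up iron and respond to type 2 cytokines. In obesity further macrophages gather around dying adipocytes, and many of these are lipid-associated macrophages marked by Trem2. The resident markers fall into 4 kinds by what they encode. Mrc1 (the mannose receptor, CD206), Cd163 (the receptor for haptoglobin-haemoglobin complexes), Timd4 (a phosphatidylserine receptor) and Lyve1 (a hyaluronan receptor, also made by lymphatic endothelium) are uptake or matrix receptors. Folr2 encodes folate receptor beta. Clec10a and Mgl2 encode the galactose-type lectins CD301a and CD301b, neighbouring genes on chromosome 11. Retnla (the secreted protein RELM alpha, induced by interleukin 4 and interleukin 13) and F13a1 (the A subunit of coagulation factor XIII, a transglutaminase) encode proteins that act outside the cell. The labelled tissue was whole fat, so that fewer cells of a type and less RNA per cell cannot be told apart.

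Clec10a and Mgl2 are shown as sequence because 50-base reads cannot tell them apart over part of their length. Clec10a lies at chr11:70156197-70170834 and Mgl2 at chr11:70130329-70137550, both on the plus strand of GRCm38. Over the stretch printed here the coding sequences of the 2 genes are identical in 183 bases, which span more than 1 exon, at chr11:70169822-70170189 in Clec10a and chr11:70136337-70136699 in Mgl2. No base is in capitals, since the whole run is shared.
Clec10a and Mgl2, shared: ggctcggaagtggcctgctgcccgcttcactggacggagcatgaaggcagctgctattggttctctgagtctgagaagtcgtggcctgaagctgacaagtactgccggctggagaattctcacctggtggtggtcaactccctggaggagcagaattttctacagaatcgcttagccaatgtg
Of the 50-base windows in the transcripts of Mgl2, 12.2% also occurred in Clec10a, and of those of Clec10a 8.49% in Mgl2. With all other genes counted, the shares were 13.1% and 9.02%, and reads from these windows cannot be placed by sequence alone. Folr2 shared 52.6% of its windows with Gm10602, which is annotated on the opposite strand and is not a row of the expression table. In the other 6 genes the share was between 0 and 0.404%.

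The Retnla promoter is shown because Retnla was the most abundant marker and the one that moved furthest. Retnla lies at chr16:48842551-48844461 on the plus strand of GRCm38, and the 192 bases before that start are printed from the RefSeq promoter table of GRCm38.p6, at chr16:48842359-48842550.
Retnla promoter: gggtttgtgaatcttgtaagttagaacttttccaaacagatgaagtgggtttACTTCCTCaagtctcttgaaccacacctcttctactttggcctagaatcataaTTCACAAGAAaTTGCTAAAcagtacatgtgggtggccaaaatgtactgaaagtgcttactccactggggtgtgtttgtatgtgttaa
Capitals mark matches to 3 motifs, each searched on both strands. In order they are GAGGAAGT for PU.1, on the minus strand, TTC and GAA spaced by 4 bases for STAT6, and TTGCNNAA for C/EBP, and the 3 matches do not overlap. Promoters of 300 bases were given for 7 of the 9 markers, as 9 entries, and for neither Lyve1 nor Clec10a. The STAT6 letters were found in 1 of these 9 entries and in 6.95% of 32851 promoters, the C/EBP letters in 1 and in 10.8%, and the PU.1 letters in 2 (Retnla and F13a1) and in 3.2%. The related STAT motif, with the same letters spaced by 3 bases, was in 0 of the 9 and in 8.3% of all. A match of letters is a description of the sequence and not a binding site.

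Depth was even, with between 12986441 and 13027028 reads per mouse, of which between 86.12% and 90.41% mapped. The deposited values are FPKM, that is, fragments normalised to the length of the transcript and to the mapped fragments of the library, so that levels of different genes can be set side by side per length. In NormMg-LFD replicate 3 the FPKM of 12 exocrine pancreas genes summed to 1779, against 12.3 to 52.4 in the other 18 mice, and the LowMg-HFD mice were between 21.1 and 44.6. Pancreatic RNA thus stood out in a control library, whereas the study's methods speak of pancreatic tissue in a LowMg-HFD sample, which was left out of its later analyses and which the labels do not name. All 5 LowMg-HFD libraries are used here, and whether a library carries the wrong label could not be settled from the labels. The mean log2(FPKM + 1) of 16 pan-macrophage genes was 4.97 in NormMg-LFD replicate 3 and 4.97 to 5.28 over its group. It was 5.48 to 6.65 in the LowMg-HFD mice, and an exchange of labels was not tested. With any 1 of the 5 LowMg-HFD libraries left out, fat on low Mg2+ still gave 0 markers and Mg2+ on the HFD gave 3 or 4. Counts of markers are therefore also given without NormMg-LFD replicate 3. LowMg-LFD replicate 1 was the lowest of its group in 9 of the 9 resident markers, and LowMg-HFD replicate 3 the highest of its group in 7 of 9.

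All 9 resident markers were above 0 in each of the 19 mice. By mean FPKM over the 19 mice the order was Retnla (442.9), Folr2 (73.8), Clec10a (60.5), F13a1 (42.1), Mrc1 (40.6), Mgl2 (29.4), Cd163 (22.4), Lyve1 (18.8) and Timd4 (1.6). Retnla stood apart at the top, since its lowest mouse (152) was above the highest mouse of every other marker (129, in Folr2). Timd4 stood apart at the bottom, its highest mouse (3.3) being below the lowest of any other marker (9.46, in Cd163). Between these ends the ranges of neighbours in the order overlapped, and the order depends on the diet, since mean FPKM was 45.2 for F13a1 and 29.5 for Mrc1 in the NormMg-LFD but 37.6 and 62.2 in the NormMg-HFD group. The plot of FPKM by mouse shows all 171 values.

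**Figure D1:**
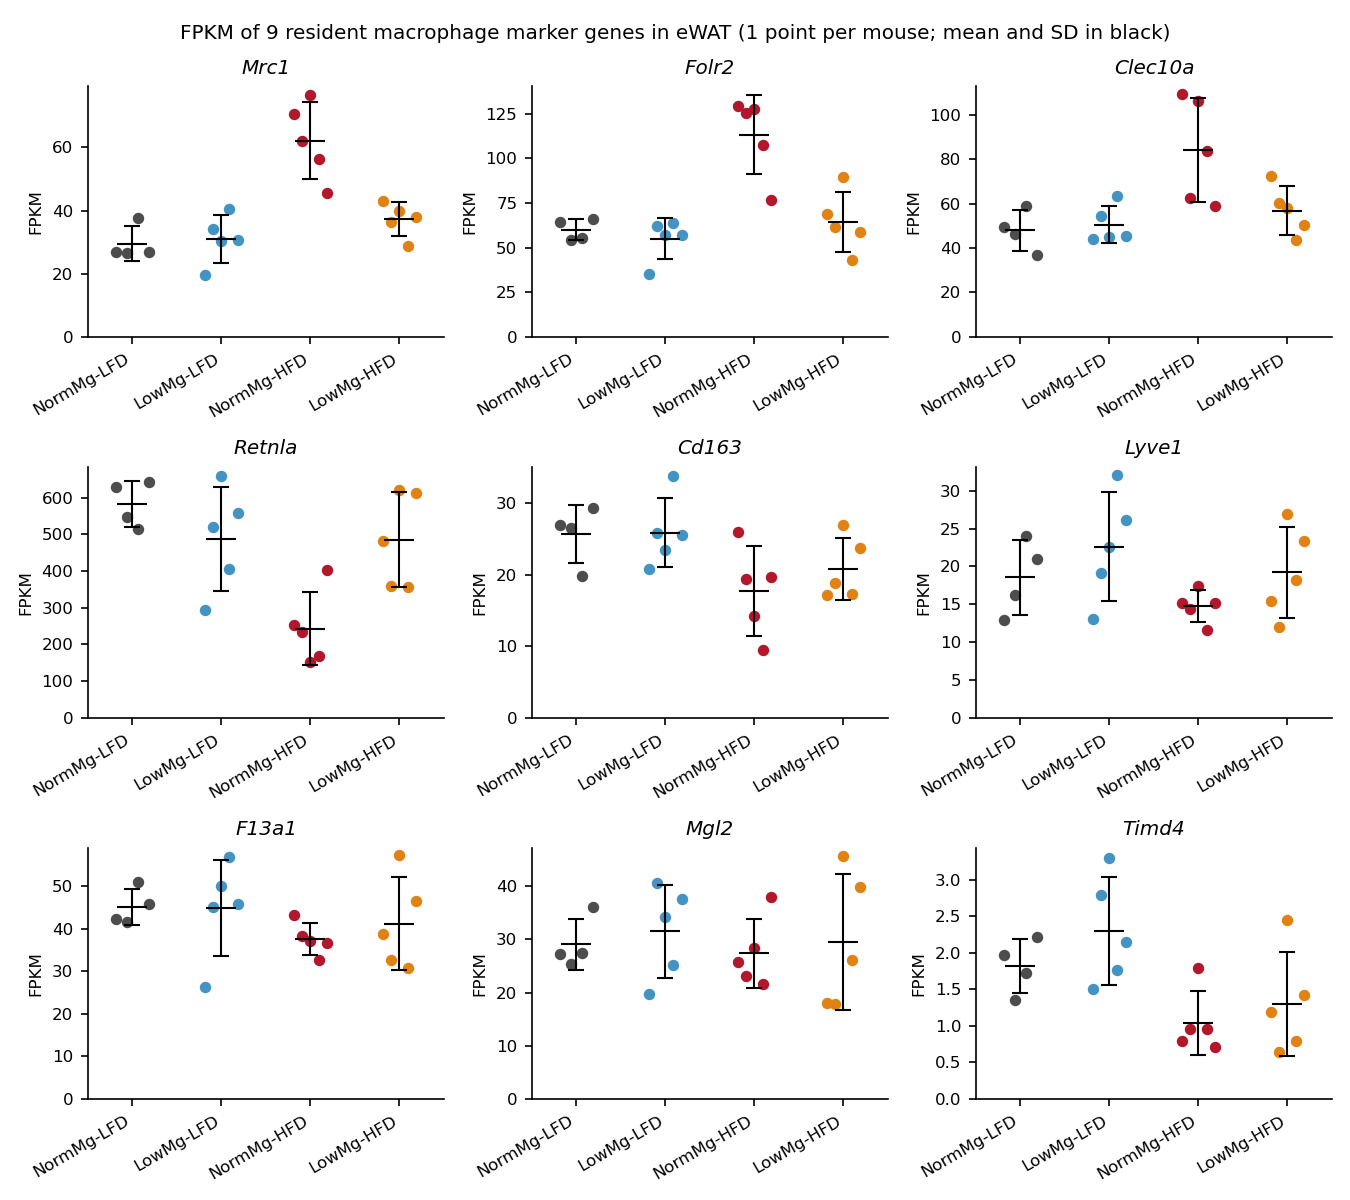
FPKM (vertical axis, from 0) of the 9 resident markers in each mouse of the 4 diet groups; black bars are the mean and SD (n = 4 or 5). Mrc1, Folr2 and Clec10a were highest in the NormMg-HFD group and Retnla was lowest there, while Mgl2, Lyve1 and F13a1 overlapped between all groups.

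On normal Mg2+, the HFD moved the resident markers in both directions. Mrc1, Folr2 and Clec10a rose by 1.71-fold to 2.06-fold. Retnla fell to 0.393 of its level and Cd163 to 0.676. Lyve1, F13a1 and Mgl2 did not pass the test. Of 8 markers tested (Timd4 was below the filter of FPKM 8), 3 rose and 2 fell (limma, adjusted p under 0.05 over 8336 genes). Over all genes tested 24.6% rose and 12.8% fell. Without NormMg-LFD replicate 3, the library with pancreatic RNA, 3 rose and 1 fell.

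Mrc1 FPKM was 26.8, 26.5, 37.7 and 26.9 in the NormMg-LFD mice and 70.7, 61.9, 76.6, 56.2 and 45.6 in the NormMg-HFD mice. All 5 HFD mice were above all 4 controls. The log2 fold change of Mrc1 was 1.05 ± 0.18 (SE, limma adjusted p = 0.000152). Folr2 FPKM was 64.6, 54.2, 55.5 and 65.8 in the NormMg-LFD mice and 129, 125, 128, 107 and 76.6 in the NormMg-HFD mice. These groups did not overlap either, with replicate 5 the lowest of the HFD mice. Folr2 rose by 0.88 ± 0.20 on the log2 scale (SE, limma adjusted p = 0.0015). Clec10a FPKM was 49.3, 46.3, 58.9 and 37 in the controls and 109, 62.5, 106, 83.7 and 59.1 in the NormMg-HFD mice. The lowest HFD mouse, replicate 5, was just above the highest control. For Clec10a the log2 fold change was 0.77 ± 0.19 (SE, limma adjusted p = 0.00317).

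Retnla went the other way. Its FPKM was 630.2, 547, 515 and 643 in the NormMg-LFD mice and 254, 234, 152, 169.5 and 404 in the NormMg-HFD mice. All 5 HFD mice lay below all 4 controls, and NormMg-HFD replicate 5 was the nearest to them. Retnla fell by 1.35 ± 0.26 on the log2 scale (SE, limma adjusted p = 0.000446). For Mrc1, Folr2, Clec10a and Retnla, whose groups did not overlap, the exact two-sided permutation test gave p = 0.0159, the smallest that 4 against 5 mice allow. Among all genes tested, the groups did not overlap in 32.1%.

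Adipocyte genes moved with the fall of Retnla. Of 8 tested, 6 fell and 1 rose on the NormMg-HFD, and their summed FPKM was 5418 to 8101 in the NormMg-HFD mice and 11728 to 15592 in the controls, with none at 0. By the largest change they were Cfd (adipsin, log2 fold change -3.80), Lep (leptin, 1.69) and Lipe (hormone-sensitive lipase, -0.87). Retn (resistin), a relative of Retnla that mouse adipocytes secrete, changed by -2.16 (limma adjusted p = 1.36e-06). The part of adipocyte RNA in the Retnla result was not tested. Of the 13 type 2 cytokine genes, 3 passed the filter and 1 rose, namely Stat6 (0.37), which transmits the interleukin 4 signal, while Il4ra (0.55) and Klf4 (-0.08) did not pass. Il4, Il5 and Il13, the type 2 cytokines themselves, had mean FPKM below 1 in all 4 groups (chosen after their values were seen).

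Cd163 FPKM was 27, 26.6, 19.8 and 29.4 in the NormMg-LFD mice and 26, 19.4, 14.2, 9.46 and 19.7 in the NormMg-HFD mice. The groups overlapped, and 4 of the 5 HFD mice were below all controls. Cd163 fell by 0.56 ± 0.22 on the log2 scale (SE, limma adjusted p = 0.0461, over the alternative settings 0.012 to 0.131). Without NormMg-LFD replicate 3 the adjusted p was 0.096, and without NormMg-HFD replicate 4, the lowest mouse, the change was -0.37 (adjusted p = 0.131), and the call was lost in 14 of 27 alternatives.

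Lyve1 FPKM ranged from 12.9 to 24 in the NormMg-LFD and from 11.7 to 17.4 in the NormMg-HFD mice, a log2 fold change of -0.29 (95% interval -0.78 to 0.21). Lymphatic endothelium also makes Lyve1, and of its 7 distinct rows measured (Pdpn was listed a second time with the same values) 1, Ccl21a (-1.40, limma adjusted p = 0.0737), passed the filter and was not called. The summed FPKM of these 7 rows was 38.6 to 210.4 in the NormMg-LFD and 27.9 to 73.7 in the NormMg-HFD mice, none of them at 0 in every mouse, and their part in Lyve1 was not tested. F13a1 ranged from 41.7 to 50.9 and from 32.6 to 43.2, a log2 fold change of -0.26 (-0.65 to 0.13). In 4 of the 5 HFD mice F13a1 was below all controls, and the exact permutation test, which is not adjusted, gave p = 0.0476. Platelets also carry factor XIII A, and the 5 platelet genes summed to between 1.76 and 6.04 FPKM over all mice, too low to test. Mgl2 ranged from 25.4 to 36.1 and from 21.5 to 38.1, a log2 fold change of -0.10 (-0.64 to 0.45). Its neighbour Clec10a rose while Mgl2 did not pass the test, and the difference between the 2 genes was not tested. The 9 dendritic cell genes, a cell type that can also carry Mgl2, were all below the filter.

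Timd4, the phosphatidylserine receptor, was the lowest of the markers. Its FPKM was 1.97, 1.36, 1.72 and 2.22 in the NormMg-LFD, 1.5, 2.79, 3.3, 1.77 and 2.15 in the LowMg-LFD, 0.79, 0.95, 1.79, 0.95 and 0.71 in the NormMg-HFD and 1.19, 0.64, 2.45, 0.79 and 1.42 in the LowMg-HFD mice. In both HFD groups 4 of the 5 mice were below every mouse of the LFD group with the same Mg2+. From the steps between the values of low genes, these rest on between 8 and 42 reads per mouse. With the filter lowered to FPKM 1, the log2 difference of the HFD from the LFD was -0.48 ± 0.22 on normal and -0.55 ± 0.21 on low Mg2+ (SE, limma adjusted p = 0.107 and 0.1), so that neither passed. The exact permutation test, which is not adjusted, gave p = 0.0476 and 0.0556.

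**Figure D2:**
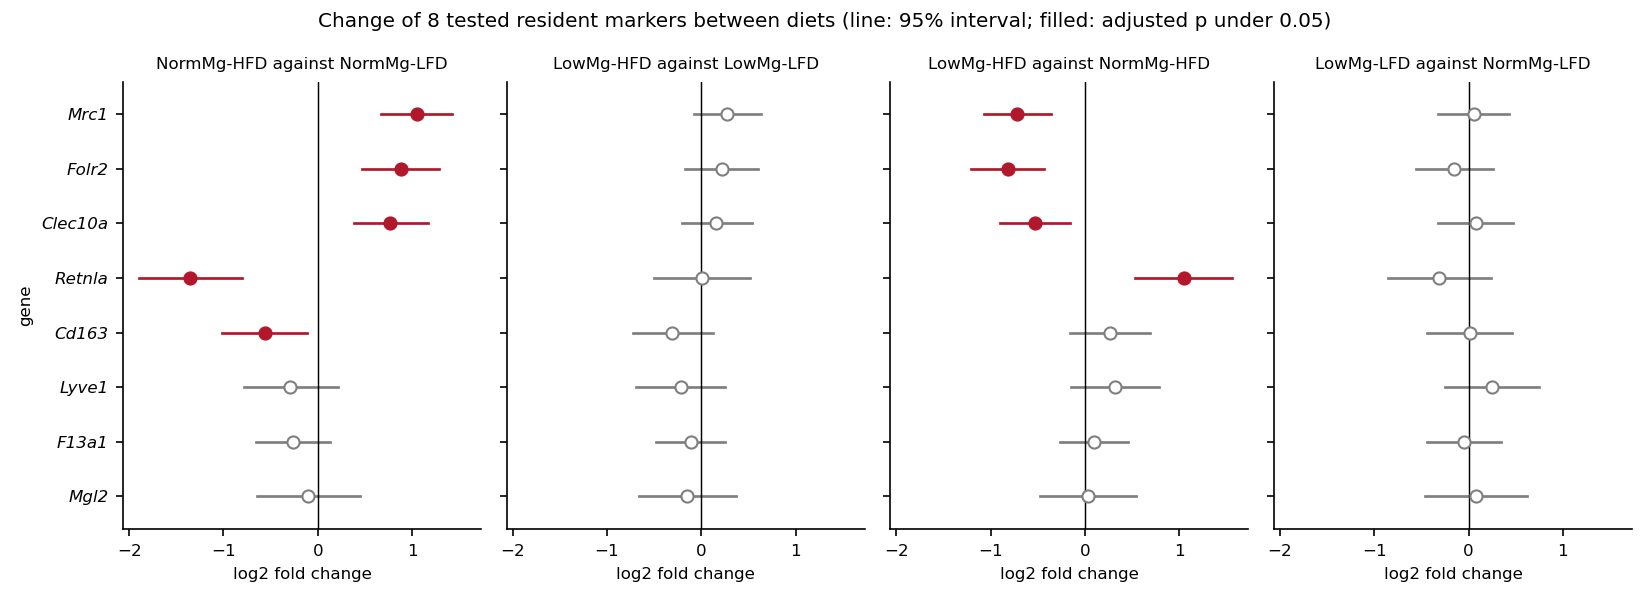
Log2 fold change (horizontal axis) of the 8 tested resident markers in 4 comparisons of diets, with its 95% interval from limma; filled red points had an adjusted p under 0.05. On normal Mg2+ the HFD raised 3 and lowered 2 markers, on low Mg2+ it moved none past the threshold, and Mrc1, Folr2 and Clec10a were lower and Retnla higher in the LowMg-HFD than in the NormMg-HFD group.

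Genes that macrophages in general express rose much more on the NormMg-HFD than the resident markers. Of 16 pan-macrophage genes 14 rose, by 1.28 to 3.39 on the log2 scale (median 2.24), and the 2 others were Mertk (-0.33) and Aif1 (0.52), named after their values were seen. Fcgr1 passed the filter only through the NormMg-HFD group, and without it 13 of 15 rose over the same range. The largest rises were in Ctss (cathepsin S, 3.39), Mpeg1 (perforin-2, 3.30) and Cd68 (macrosialin, 3.26). Each of the 14 rose by more than Mrc1, the marker with the largest rise (1.05). Cd68 FPKM ranged from 25 to 38.9 in the NormMg-LFD and from 233.1 to 390.2 in the NormMg-HFD mice. In the 12 lipid-associated macrophage genes 11 rose and 1, Acp5 (acid phosphatase 5, -0.39), fell. Of the 11, Spp1 and Atp6v0d2 passed the filter only through the NormMg-HFD group, and without them 9 of 10 rose. Mmp12 (macrophage elastase, 5.45), Gpnmb (5.31) and Atp6v0d2 (a subunit of the vacuolar proton pump, 5.28) rose the most in that list. The median over the 8 tested resident markers was -0.18, beside 2.17 for the 16 pan-macrophage, 3.47 for the lipid-associated and 0.07 for all genes tested. Without the genes that passed the filter only through the NormMg-HFD group, the pan-macrophage median was 2.11 and the lipid-associated median 3.29.

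**Figure D3:**
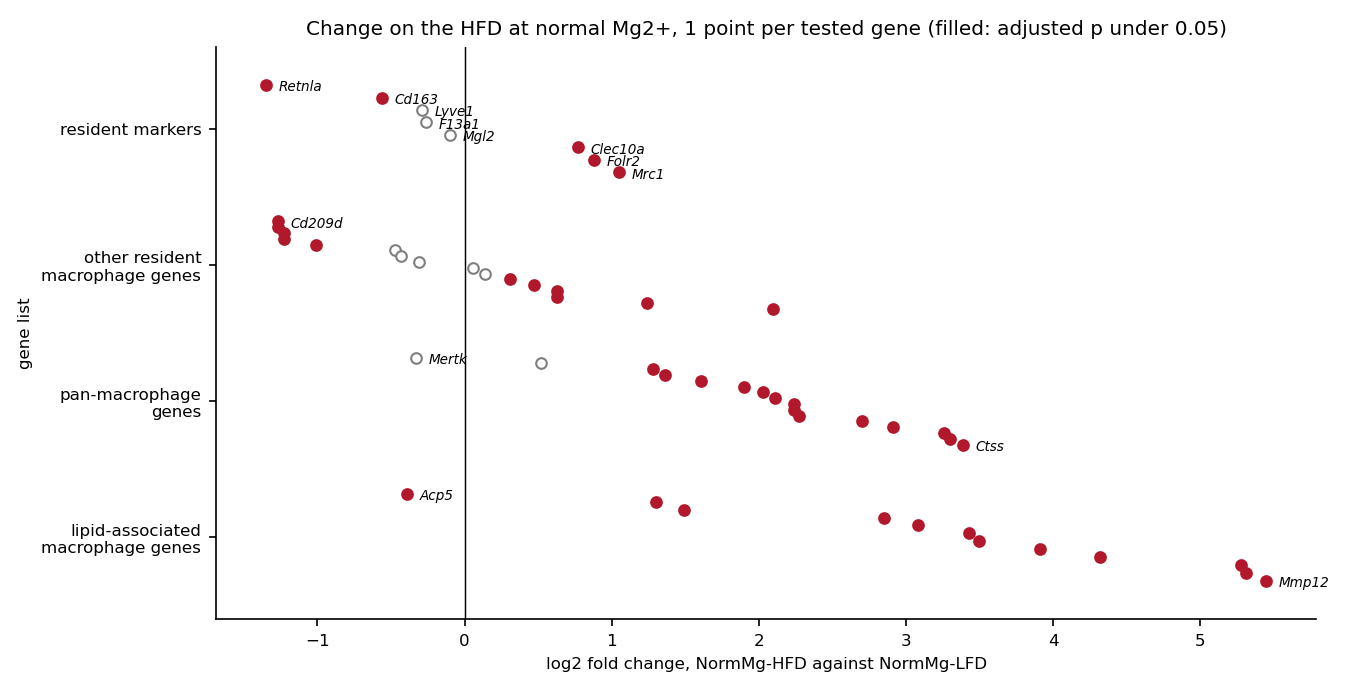
Log2 fold change of NormMg-HFD against NormMg-LFD (horizontal axis) for each tested gene of 4 lists (vertical axis); filled points had an adjusted p under 0.05. The resident markers lay between -1.35 and 1.05, the 14 risen pan-macrophage genes between 1.28 and 3.39, and the lipid-associated genes reached 5.45.

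The mean log2(FPKM + 1) over the 9 resident markers was 5.17 ± 0.09 (SD, n = 4) in the NormMg-LFD, 5.19 ± 0.29 (n = 5) in the LowMg-LFD, 5.13 ± 0.16 (n = 5) in the NormMg-HFD and 5.11 ± 0.30 (n = 5) in the LowMg-HFD group. The same mean over the pan-macrophage genes was 5.08 ± 0.15, 5.17 ± 0.35, 7.13 ± 0.28 and 6.03 ± 0.52. The mean of the markers thus overlapped between all groups, with risen and fallen markers inside it, while every NormMg-HFD mouse (6.72 to 7.43) was above every LFD mouse (4.69 to 5.56) in the pan-macrophage mean. These means are a description and carry no test.

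**Figure D4:**
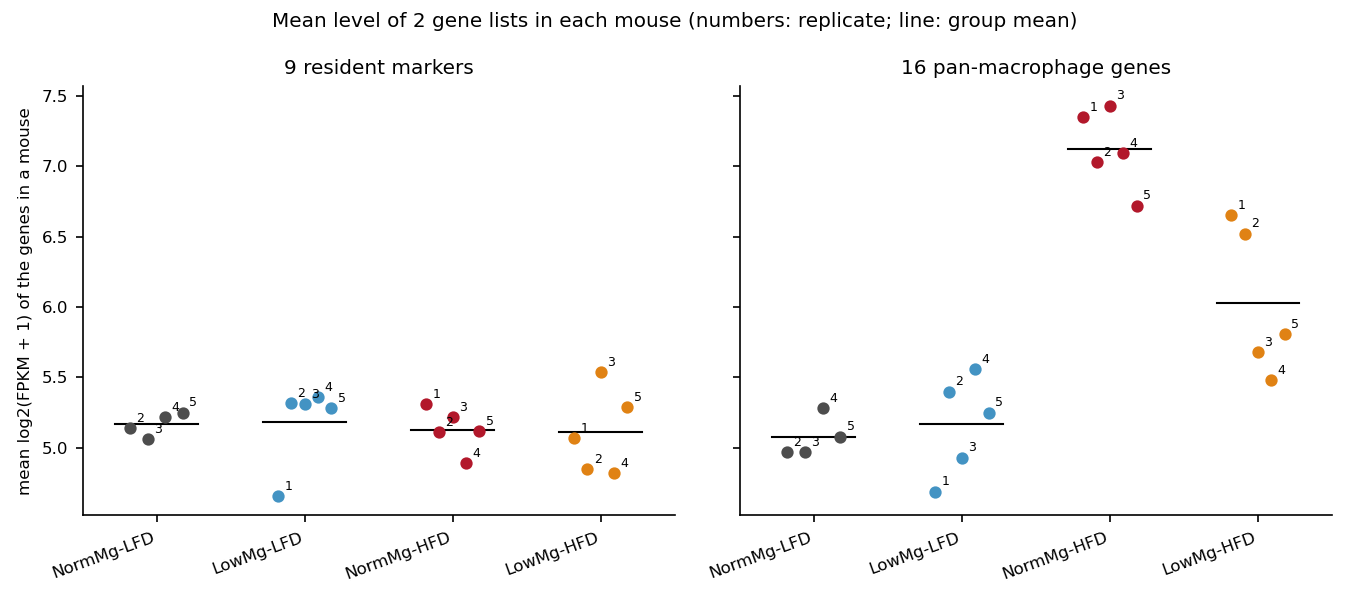
Mean log2(FPKM + 1) of the 9 resident markers (left) and of 16 pan-macrophage genes (right) in each mouse, numbered by replicate; lines are group means. The resident markers stayed between 4.66 and 5.54 in all mice, and the pan-macrophage genes rose to between 6.72 and 7.43 on the NormMg-HFD.

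Each gene was also set against the pan-macrophage mean of the same mouse, and the difference fitted in limma. On the NormMg-HFD all 8 tested markers were lower relative to that mean than on the NormMg-LFD. Mrc1 moved the least, from a group mean of -0.16 to -1.17, and the log2 difference was -1.17 in Folr2. It was larger in Clec10a (-1.28), Mgl2 (-2.15), F13a1 (-2.31), Lyve1 (-2.34) and Cd163 (-2.61), and largest in Retnla (-3.39). With 4 genes (Csf1r, Mertk, Fcgr1 and Adgre1) as the reference the 8 were still lower, with differences of -0.48 in Mrc1, -0.64 in Folr2, -0.75 in Clec10a and -2.87 in Retnla. All 5 HFD mice were below all 4 controls in each of the 8, and in Timd4 (-2.53), with an exact permutation p of 0.0159. Almost any gene falls behind a list that rose this much, and 96.4% of all genes tested were lower in the same way, so that the count of 8 of 8 is close to the background. The groups did not overlap in the same direction in 95.2% of all genes. All genes share 1 reference value per mouse in this fit, so that its adjusted p values are not independent between genes and are not printed beside these differences. Relative to the list, Mrc1 varied little within these 2 groups, ranging from -0.28 to -0.01 in the NormMg-LFD and from -1.25 to -1.06 in the NormMg-HFD mice. Retnla varied more, from 3.73 to 4.33 and from -0.17 to 1.94.

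On low Mg2+ the HFD moved no resident marker past the threshold. Of 8 tested, 0 were called, beside 15.9% of all genes, and limma gave no unadjusted p under 0.05 for any of the 8, whose 95% intervals all included 0. Mrc1 FPKM was 19.7, 34.1, 30.5, 40.6 and 30.8 in the LowMg-LFD and 43.1, 36.5, 39.9, 28.7 and 38 in the LowMg-HFD mice. These groups overlapped, and the log2 fold change was 0.27 (95% interval -0.08 to 0.63). Retnla FPKM was 293, 522, 658, 406 and 558 in the LowMg-LFD and 482, 359, 620.0, 356 and 613 in the LowMg-HFD mice. Both groups covered nearly the same range, and the log2 fold change was 0.01 (-0.50 to 0.52). The other values lay between -0.31 (Cd163) and 0.22 (Folr2). Of the 16 pan-macrophage genes 10 rose in the same comparison, with a median of 0.79 over the list. Adipocyte genes and Retnla did not move together here. Of the 8 adipocyte genes 2 fell and 1 rose, with a median of -0.25 and Cfd at -1.89. Retn changed by -1.01 (limma adjusted p = 0.00303), beside 0.01 in Retnla. Relative to the pan-macrophage mean the 8 tested markers were lower, by -0.59 (Mrc1) to -1.17 (Cd163), beside 78% of all genes. That count fell to 5 without LowMg-HFD replicate 2, and to 0 with the 4 genes in place of the 16.

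Within the HFD, low Mg2+ went with lower Mrc1, Folr2 and Clec10a and with higher Retnla. Of 8 markers tested 3 were lower, beside 12.9% of all genes, and 1 was higher, beside 5.58%. This comparison shares its NormMg-HFD mice with the comparison of the fat levels on normal Mg2+, so that the values of those 5 mice enter both. Mrc1 FPKM was between 28.7 and 43.1 in the LowMg-HFD and between 45.6 and 76.6 in the NormMg-HFD mice, with no overlap. Its log2 difference was -0.72 ± 0.17 (SE, limma adjusted p = 0.00707), and the exact permutation test gave p = 0.00794, the smallest for 5 against 5 mice. Groups did not overlap in 12.8% of all genes tested.

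Folr2 FPKM was 68.8, 61.5, 89.3, 42.9 and 58.9 in the LowMg-HFD mice. All but replicate 3 were below every NormMg-HFD mouse, and the log2 difference was -0.82 ± 0.18 (SE, limma adjusted p = 0.00543). Retnla was 1.05 ± 0.24 higher (SE, limma adjusted p = 0.00647). Its LowMg-HFD mice, from 356 to 620.0, lay above 4 of the 5 NormMg-HFD mice, and NormMg-HFD replicate 5 (404) fell within their range. Adipocyte genes moved with Retnla here too, with 5 of 8 higher and 0 lower, a median of 0.56 and Cfd at 2.12, and Retn, the relative of Retnla, was 1.33 higher (limma adjusted p = 0.00178). The summed FPKM of the adipocyte genes was 8396 to 11966 in the LowMg-HFD mice, and their part in the Retnla difference was not tested. Clec10a FPKM was 72.3, 60.2, 57.8, 43.4 and 50.6 in the LowMg-HFD mice, of which 3 were below every NormMg-HFD mouse. The log2 difference of Clec10a was -0.53 ± 0.18 (SE, limma adjusted p = 0.0437, over the alternatives 0.0152 to 0.132), and without LowMg-HFD replicate 4 it was -0.44 (adjusted p = 0.102). Without NormMg-LFD replicate 3, which is not in this comparison but enters the estimate of spread, the adjusted p was 0.0521, leaving 2 lower and 1 higher.

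Cd163 (0.27, 95% interval -0.16 to 0.69), Lyve1 (0.32, -0.15 to 0.79), F13a1 (0.10, -0.27 to 0.46) and Mgl2 (0.03, -0.48 to 0.54) did not pass. By the SD of log2(FPKM + 1), Mgl2 varied the most of the markers in this group (0.61), at 18.1, 17.8, 45.8, 26.2 and 39.9 FPKM in LowMg-HFD replicates 1 to 5. In the same mice the pan-macrophage mean was 6.65, 6.52, 5.68, 5.48 and 5.81, and no relation was computed over 5 mice. Of the pan-macrophage genes 14 of 16 were lower in the LowMg-HFD than in the NormMg-HFD group, with a median of -1.18, and 13 of 15 without Fcgr1. Relative to their mean, 6 of the 8 tested markers were higher in the LowMg-HFD group, beside 92.4% of all genes, from 0.57 (Clec10a) to 2.14 (Retnla). Retnla, F13a1 and Timd4 were above every NormMg-HFD mouse in all 5 LowMg-HFD mice (exact permutation p = 0.00794), as were 46.4% of all genes on this scale, while for Mgl2 the exact permutation p was 0.0556. The 2 that did not pass were Mrc1 (0.38, -0.03 to 0.79) and Folr2 (0.28, -0.18 to 0.74). Mrc1 passed in 4 of 29 alternatives, among them those without LowMg-HFD replicate 1 or 2.

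**Figure D5:**
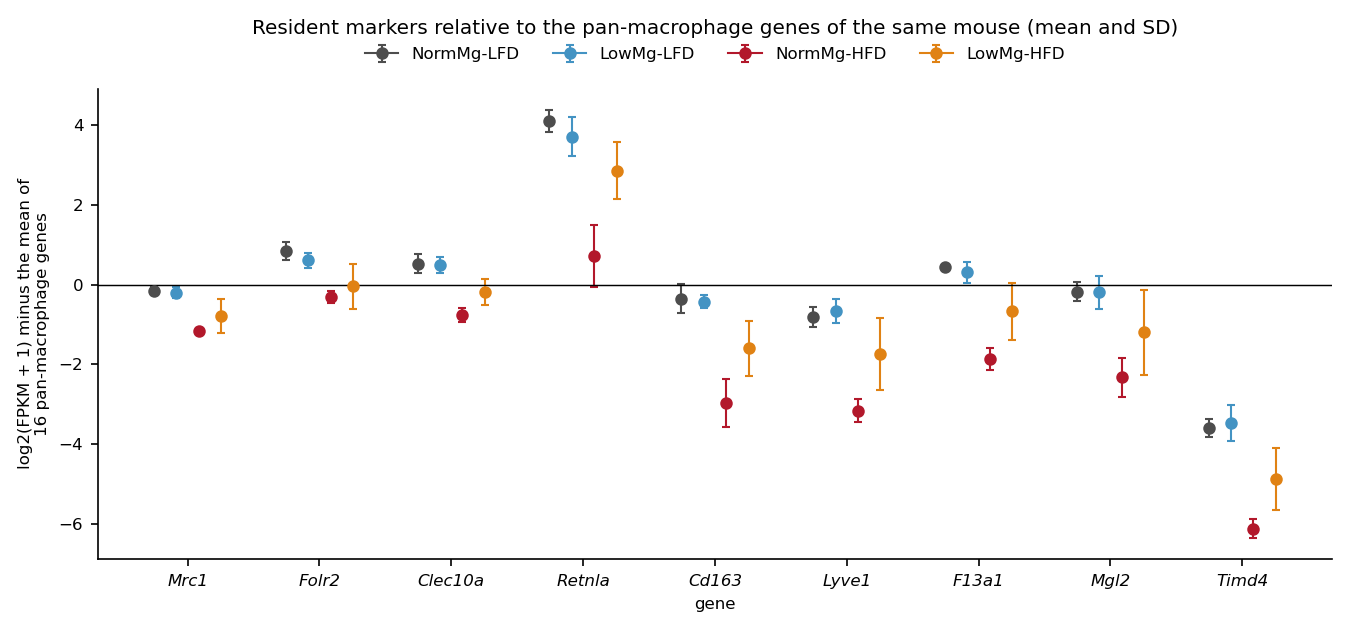
Level of each resident marker relative to the pan-macrophage genes (vertical axis, log2(FPKM + 1) minus the mean of 16 genes in the same mouse; mean and SD over the mice of a group). Every marker was lowest in the NormMg-HFD group, with the LowMg-HFD group between it and both LFD groups.

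On the LFD, low Mg2+ moved 0 of the 8 tested markers, and 0% of all genes passed, with 547 of 8336 genes at an unadjusted limma p under 0.05. The log2 differences ran from -0.31 (Retnla, 95% interval -0.85 to 0.24) to 0.25 (Lyve1, -0.25 to 0.75). The interaction asks whether low Mg2+ acted differently on the HFD and on the LFD, and is by construction also the difference between both effects of fat. None of the 8 passed, beside 1.25% of all genes, although the 95% intervals of 4 markers excluded 0. The interaction was 1.35 ± 0.36 for Retnla (SE, limma adjusted p = 0.0551), -0.77 ± 0.25 for Mrc1 (adjusted p = 0.091), -0.67 ± 0.27 for Folr2 (adjusted p = 0.17) and -0.61 ± 0.26 for Clec10a (adjusted p = 0.194). It follows that in this fit the calls on normal Mg2+ and their absence on low Mg2+ are not shown to differ. Interaction calls among the markers numbered 0 to 1 over the other settings and 0 to 2 with a mouse left out.

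Other genes of resident macrophages were read from a list of 17, of which 16 were tested, and they were split as the markers were. On the NormMg-HFD 6 rose and 5 fell. Without Siglec1, which passed the filter only through that group, 5 rose (by 0.31 to 2.10) and 5 fell. Among those that fell, the largest changes were in the lectin genes Cd209d (-1.27, adjusted p = 0.00241) and Cd209g (-1.27, adjusted p = 0.00107). Cd209d FPKM ranged from 14.9 to 24.8 in the NormMg-LFD and from 4.53 to 10.6 in the NormMg-HFD mice, without overlap. The other 3 that fell were Cd209f (-1.23), Ccl24 (the eosinophil chemokine eotaxin-2, -1.23) and Cd209b (-1.01), named after their values were seen. Among those that rose were Selenop (0.63), Pf4 (0.63), Stab1 (0.47) and Igf1 (0.31), also named after their values were seen. The Cd209 genes are close relatives of each other, and how their reads were divided was not examined. In the LowMg-HFD against the NormMg-HFD group 4 of the 16 were higher, all of them Cd209 genes, and 5 were lower, or 4 without Siglec1. Pf4 (-0.70), Selenop (-0.41) and Igf1 (-0.41) were among the lower. The relatives Cd44 (of Lyve1, 3.05) and Mrc2 (of Mrc1, 2.74) rose on the NormMg-HFD, and Retn (of Retnla) fell.

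Monocyte and neutrophil genes were mostly too low to test, and 3 of 8 passed the filter. S100a8 (2.43) and Plac8 (1.17) passed it only through the NormMg-HFD group, where they are high, so that their rise there is no independent result. Ccr2, the chemokine receptor of monocytes, passed in other groups too and rose by 0.94, from a mean FPKM of 12.4 to 25.5. Of the 6 blood endothelial genes 1 fell, Kdr (-0.41), while Vwf (-0.26) and Tie1 (-0.17) did not pass. The summed FPKM of the 5 mesothelial genes, all below the filter, was 28.4 to 92.3 in the NormMg-LFD and 8.36 to 20.4 in the NormMg-HFD mice, and their part in the markers that fell was not tested.

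The genes most like each marker were found by the mean absolute difference of standardised log2(FPKM + 1) over the 19 mice, where for Mrc1 the median over all tested genes was 0.96 SD. Nearest to Mrc1 were C1qa (a complement subunit made by macrophages) and Pld4, both at 0.20 SD, and C1qa is 1 of the pan-macrophage genes. Nearest to Retnla were Aoc3 (an amine oxidase abundant in adipocytes) and Rras, both at 0.25 SD. Clec10a was nearest to Lamp2 (a lysosomal membrane protein, 0.26) and Spcs3 (0.30), and Folr2 to Dbnl and Pepd (both 0.30). Timd4 was not included, being below the filter. The 4 others had no gene so near, with Prkd2 and Pxmp2 for Cd163 (both 0.44), Mmaa (0.45) and Tspyl2 (0.50) for Lyve1, Metap1d (0.46) and Ndfip1 (0.48) for F13a1, and Hbb-bt (0.57) and Tgfb1i1 (0.59) for Mgl2.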

How the data were processed

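Total RNA of eWAT was sequenced by the authors as 50-base single-end reads, mapped with HISAT and Bowtie2 to GRCm38 (mm10), and quantified with RSEM 1.2.31. They deposited 1 table of FPKM, normalised for transcript length and library size, and a mapping summary with total read counts and the percent of reads mapped. Of 24238 gene rows, 1 with a non-numeric value was dropped, and 26 symbols that a spreadsheet had made into dates were restored. Mice were grouped by their labels. P values set the difference between groups against the spread between mice. No cage was modelled, and each mouse was treated as independent.

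A gene was tested (8336 were) where some group had both its mean FPKM and the FPKM of 4 or more of its mice above 8. log2(FPKM + 1) was fitted over the 4 groups with limma 3.58.1 in R 4.3.3, letting the prior variance follow the intensity (trend), with two-sided p values adjusted by Benjamini-Hochberg and a threshold of 0.05. Fold changes are on the log2(FPKM + 1) scale and understate those of low genes. The fit was tested on simulated data. Exact permutation tests used scipy 1.17.1. The FPKM worth of 1 read was taken from low genes of 1 transcript, of which 71.4% to 79.4% per mouse came out within 0.12 of whole reads (19% to 21.5% at other depths). Promoters are from RefSeq, and coordinates from GENCODE.

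The 9 markers and the other lists were chosen with earlier results of these data known. Of each other list, the counts and the 3 tested genes with the largest change on the NormMg-HFD are named, except for genes that are not reported here, and of each tested marker the 2 nearest genes. Alternatives were median centring, quantile normalization, filtering at FPKM 1 or not at all, 0.1 as pseudocount, no trend, only the groups compared, the replicate number as a block, each mouse left out in turn and, for the relative fit, the list median or 4 genes.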

Additional observations from a re-analysis of the deposited data

Results flagged for a closer look

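Of 37 sets of values tested for a mouse far from the others of its group, 4 held one, and chance flags about 1 in 20 groups. Mrc1 FPKM in NormMg-LFD replicate 4 (37.7) stood above the 3 other controls (26.5 to 26.9). Folr2 in LowMg-LFD replicate 1 (34.9) was far below the 4 other mice of its group, in which it ranged from 56.7 to 63.5, and the same mouse was lowest in all 9 markers. Timd4 in NormMg-HFD replicate 3 (1.79, about 23 reads) was above the 4 other mice (0.71 to 0.95, 9 to 12 reads). The summed FPKM of the exocrine pancreas genes in NormMg-LFD replicate 3 was 1779. In that mouse 5 of the 9 markers were the lowest of the group.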

How the results depend on the processing

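Over 8 alternatives and 19 mice left out in turn, between 4 and 5 markers were called for fat on normal Mg2+ and between 3 and 4 for Mg2+ on the HFD, while fat on low Mg2+ and Mg2+ on the LFD stayed at 0. Cd163 (fat on normal Mg2+) and Clec10a (Mg2+ on the HFD) were no longer called in 14 of 27 alternatives each (with a mouse left out, adjusted p 0.0505 to 0.131 and 0.0508 to 0.132). Both calls were lost with a filter of FPKM 1, no filter and only the groups compared, that of Cd163 also under the replicate block (adjusted p 0.057 to 0.106), and that of Clec10a also under both scalings (0.0564 to 0.113). The mice whose omission lost the call of Cd163 were NormMg-LFD replicates 2, 3 and 5, LowMg-LFD 2, 3 and 5, NormMg-HFD 3 and 4 and LowMg-HFD 2 and 5, and that of Clec10a NormMg-LFD 2 and 3, LowMg-LFD 5, NormMg-HFD 1, 3 and 4 and LowMg-HFD 3, 4 and 5. Mrc1, Folr2 and Retnla kept both calls, and Clec10a that for fat, in all 27. The interaction was called for 1 marker (Retnla) under quantile normalization and for 0 to 2 with a mouse left out (1 without LowMg-LFD replicate 1, LowMg-HFD replicate 1 or LowMg-HFD replicate 2, 2 without NormMg-HFD replicate 5). Relative to the pan-macrophage genes, fat on low Mg2+ gave 0 with 4 reference genes and 5 to 8 with a mouse left out. Over the same alternatives Mg2+ on the HFD gave 6 to 8, with Timd4 added where the filter let it in, and Mrc1 with no filter, with the list median and without LowMg-HFD replicate 1 or 2.

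Values near 0 changed sign. Retnla for fat on low Mg2+ was -0.10 after median centring and -0.04 after quantile normalization, F13a1 for Mg2+ on the LFD 0.02 after median centring. With a mouse left out, the ranges for fat on normal Mg2+ were -0.22 to 0.01 (Mgl2), for fat on low Mg2+ -0.16 to 0.13 (Retnla) and -0.33 to 0.00 (Mgl2), and for Mg2+ on the HFD -0.15 to 0.18 (Mgl2) and -0.03 to 0.19 (F13a1). For Mg2+ on the LFD they were -0.05 to 0.21 (Mrc1), -0.11 to 0.08 (Cd163), -0.04 to 0.18 (Clec10a), -0.02 to 0.23 (Mgl2) and -0.14 to 0.13 (F13a1), and for the interaction -0.10 to 0.22 (Lyve1), -0.23 to 0.10 (Mgl2) and -0.03 to 0.24 (F13a1). The cause was not tested.

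The 27 pairs of mice with the same replicate number had a median correlation of deviations of 0.0032, and 5 were over 0.1. Of the 108 pairs with other numbers 18 were over 0.1, with a median of -0.00178. The highest correlation was 0.339 for the same and 0.201 for other numbers. Pairing by number was thus not seen in the medians, and whether some numbers share a batch was not tested. With the number as a replicate block, 4 markers were called for fat on normal Mg2+, 4 for Mg2+ on the HFD and 0 otherwise, with Mgl2 at 0.00 for fat on normal Mg2+ and Lyve1 at -0.01 for the interaction.

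Scaling moved the split of all calls. For fat on normal Mg2+ 2048 genes rose and 1066 fell as deposited, 1580 and 1572 after median centring, and 1499 and 1696 after quantile normalization, while the markers stayed at 3 and 2 under both. For Mg2+ on the HFD it was 465 and 1077, then 649 and 849, then 786 and 878, and both scalings moved the markers from 1 higher and 3 lower to 1 and 2, since Clec10a was no longer called (adjusted p = 0.0564 and 0.0581). For fat on low Mg2+ it was 1036 and 293, then 593 and 531, then 549 and 530. The 1329 calls for fat on low Mg2+ became 725 with only the groups compared. The 104 interaction calls became 24 with a pseudocount of 0.1, 48 with a filter of FPKM 1, 2 with no filter, 245 after median centring, 347 after quantile normalization, 67 without the trend and 0 under the replicate block. Timd4 rests on 8 to 42 reads per mouse, and the p values of the others on 4 or 5 mice a group.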
